A study of Arabidopsis thaliana with 9 samples.

Results

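Broad wild-type-only arm FIE domains are the long stretches of FIE-bound chromatin on the Arabidopsis chromosome arms that carried a peak in the wild type and none in plants with reduced BPC and ZnF activity. A domain was a peak of the wild-type list of at least 1000 bp that shared no base pair with a knockdown peak. Its summit had to lie outside 5 fixed windows around the centromeres, 1 per chromosome and 4.5 to 5.5 Mb wide. The members were thus chosen by peak length, by the lack of a knockdown overlap and by summit position, all read from these lists. The rule found 419 domains among the 6540 peaks of the wild-type list (6.41%). They were 419 of the 457 arm peaks of this length and 419 of the 4470 arm peaks of any length found only in the wild type (9.37%). Of the 419, 25 had a summit within 1 Mb of a window.

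The study profiled FIE by chromatin immunoprecipitation and sequencing in 9 samples of Arabidopsis thaliana, strain Ws, from 30 hr old plants without further treatment. The double knockdown carried the transgenes pRNAi-BPC and pRNAi-ZnF (anti-FIE, 3 replicates). The wild type carried no transgene (anti-FIE, 3 replicates), and a second wild-type set gave the input (3 replicates). The labels name neither the promoters of the transgenes nor the genes they target, and no knockdown input is among the samples. The files held 1 peak list per anti-FIE group and none per replicate, so the spread between replicates is unknown and no comparison of the groups has a test. Depth is not given in the lists. The summit values showed that the knockdown background was 0.471 times the wild-type one at 874 paired summits.

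FIE is the WD40-repeat core subunit of Polycomb repressive complex 2 (PRC2), which methylates lysine 27 of histone H3 and keeps developmental genes silent outside the tissues and stages that need them. In flies, Polycomb complexes are brought to DNA elements by sequence-specific factors. Plant BPC proteins bind GA repeats and are counted among the factors with such a role in plants, as are some zinc finger proteins.

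The median length and fold of the domains were close to those of all other broad arm peaks and exceeded those of the short ones. Their length ran from 1002 to 5078 bp with a median of 1428 bp (interquartile range 1191 to 1866). Together they spanned 697 kb, or 33.1% of the 2105 kb covered by wild-type arm peaks. Fold enrichment at the summit, the authors' own value for each peak, ran from 2.68 to 34.6 with a median of 5.97 (interquartile range 4.53 to 8.15). Among the 4051 short arm peaks found only in the wild type, those under 1000 bp, the median fold was 3.21 and the highest 14.3. The 38 broad arm peaks that did overlap a knockdown peak had medians of 1420 bp and 5.93-fold. That fold is a median over unlike kinds. It was 8.55 in the 22 peaks with under 50% of their length covered by knockdown peaks and 4.76 in the other 16. Neither kind was as close to the domains in fold as the 38 were. Median lengths of the kinds were 1501 and 1364 bp. Of the 71 wild-type arm peaks with a fold of 10 or more, 56 were domains. Fold was higher in longer domains (Spearman rho 0.55 over 419 domains of the same library pool, a description only). The median was 4.87 in the 227 domains under 1500 bp and 10.9 in the 25 of at least 3000 bp. Length chose the domains, so these values describe them and test nothing.

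**Figure D1:**
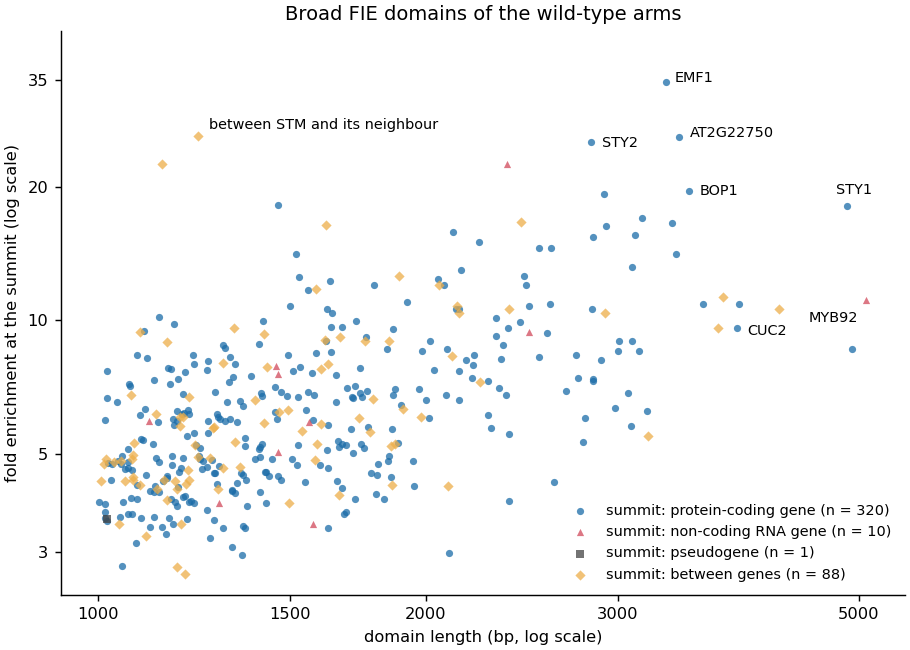
Length (horizontal, bp, log scale) against fold enrichment at the summit (vertical, log scale) of the 419 broad domains, 1 point per domain, with colour and shape for what lies under the summit. Folds tend to be higher in longer domains with much scatter: EMF1 is on top at 34.6, a domain of 1234 bp near STM reaches 26.1, and the longest, at MYB92, has 11.1.

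The length limit cut through a continuous range. The 5 shortest domains measured 1002, 1005, 1012, 1013 and 1013 bp, with folds from 3.85 to 5.97. The 5 longest peaks just outside measured 999, 999, 995, 993 and 990 bp, with folds from 3.13 to 5.47. A domain was also an interval as the caller had split it. Another wild-type peak lay within 200 bp of 119 domains (28.4%), against 16.4% of the short peaks, and no gap between wild-type peaks was smaller than 76 bp. Joining wild-type peaks across gaps of up to 200 bp gave 501 domains, the longest of 7920 bp at STY1.

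Several of the longest domains lay on regulators of shoot and flower development. The longest covered 5078 bp of chromosome 5 (3229688 to 3234765 of the TAIR10 build, as are all positions, fold 11.1) with the whole of MYB92, an R2R3 MYB factor of suberin formation, and its summit lay in the non-coding RNA gene AT5G10278. Next were 4928 bp over AT5G02990, AT5G02995 and AT5G03000 and 4877 bp at STY1 (chromosome 3, 18961932 to 18966808, fold 18.1), a SHI/STY factor that activates auxin synthesis genes. A domain of 4218 bp reached GNC, a GATA factor of chloroplast greening, and one of 3878 bp covered SPL8, an SBP-box factor of anther development. CUC2, a NAC gene of organ boundaries, lay wholly inside 3862 bp (chromosome 5, 21900736 to 21904597). The floral MADS-box gene SEP3 had 3714 bp. LAS, a GRAS gene needed for axillary meristems, had 3596 bp, and BOP1, a BTB-ankyrin gene of the leaf base, had 3490 bp. TCP2, which limits leaf cell division, had 3393 bp and EMF1, which represses flowering together with Polycomb, had 3321 bp. The other members of the 15 longest lay at AT1G03720, AT2G22750, AT4G16560 and the pair AT5G02920 and AT5G02930.

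The highest folds did not always go with length. EMF1 stood alone at 34.6, where 658 reads were piled at the summit over a background of 18.1. A domain of only 1234 bp followed at 26.1 (chromosome 1, 23065528 to 23066761), between genes and 3837 bp from STM, the homeobox gene that keeps shoot meristem cells undifferentiated. AT2G22750 had a fold of 26.0 and STY2, a relative of STY1, one of 25.3. A domain of 1143 bp beside WUS, between genes and nearest to AT2G17940, reached 22.5 (chromosome 2, 7804267 to 7805409). The domain over the long non-coding RNA gene AT3G03715 also reached 22.5, and its nearest coding gene was BRC1, a TCP gene that holds buds dormant, 2933 bp from the summit. BOP1 followed with 19.6, AT2G43670 with 19.3, RR19 with 18.2 and STY1 with 18.1. RR19 is a type-B response regulator of cytokinin signalling. FIL (listed as AFO), a YABBY gene of the outer leaf side, reached 17, AT5G06380 16.7 and AT4G16560 16.6. A domain near AT5G51795 had 16.4 and NTT, a zinc finger gene of the pistil's transmitting tract, 16.3. All 15 of these would have passed at the knockdown depth. Their choice by fold fixed this, since no domain with a fold above 4.09 would have failed.

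**Figure D2:**
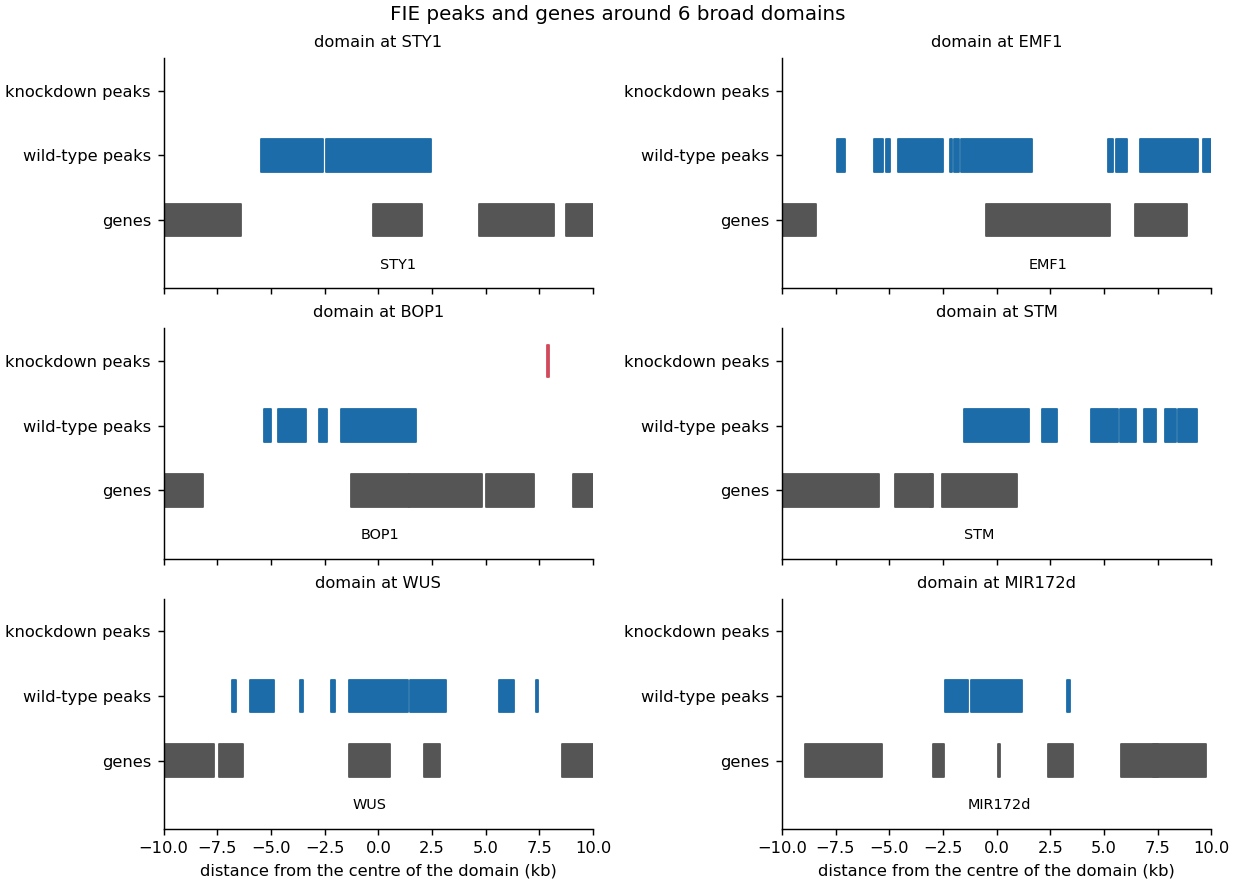
Knockdown peaks, wild-type peaks and genes within 10 kb of the centre of 6 domains (horizontal: distance from the centre in kb; bars: intervals). The knockdown track is empty around 5 of the 6 and holds 1 peak near BOP1, while the wild-type track holds 2 to 11 peaks. Of all 419 domains, 23.2% had a knockdown peak within 10 kb of their edge.

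The maps show these 6 domains with their neighbouring peaks. Within 10 kb of the centre, the knockdown list held 0 peaks and the wild-type list 11 at EMF1. The counts were 0 and 8 at WUS, 0 and 7 at STM, 1 and 4 at BOP1, 0 and 3 at MIR172d and 0 and 2 at STY1. These 6 were chosen after their values were seen. Of all 419 domains, 97 had a knockdown peak within 10 kb of their edge (23.2%), against 25.6% of short peaks. An empty knockdown track is thus ordinary at this distance.

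Broad domains lay on genes more often than short peaks did. The summit was in a protein-coding gene in 320 of 419 domains (76.4%, 95% Wilson interval 72.1 to 80.2), against 2319 of 4051 short peaks (57.2%, 55.7 to 58.8). It was between genes in 88 domains (21.0%, 17.4 to 25.2), against 37.7% of short peaks (36.2 to 39.2). A pseudogene held 1 domain summit (0.239%, 0.0421 to 1.34), against 1.97% of short ones (1.59 to 2.45). Non-coding RNA genes held 10 (2.39%, 1.30 to 4.34), against 3.11% (2.62 to 3.69). The first 3 pairs of intervals do not overlap and the last does. The intervals cover the sampling of peaks alone and not the variation between plants, and neighbouring peaks are not independent. Between folds of 5 and 8 the summit was in a protein-coding gene in 77.7% of 157 domains (70.6 to 83.5) and 64.9% of 148 short peaks (56.9 to 72.1), with intervals that overlap. Median folds within that range were 6.25 and 5.65. Of the domain length, 68.7% lay inside protein-coding genes, against 57.5% of the short peak length. Among the 374 domains that would pass at the knockdown depth the summit share was 75.9%.

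**Figure D3:**
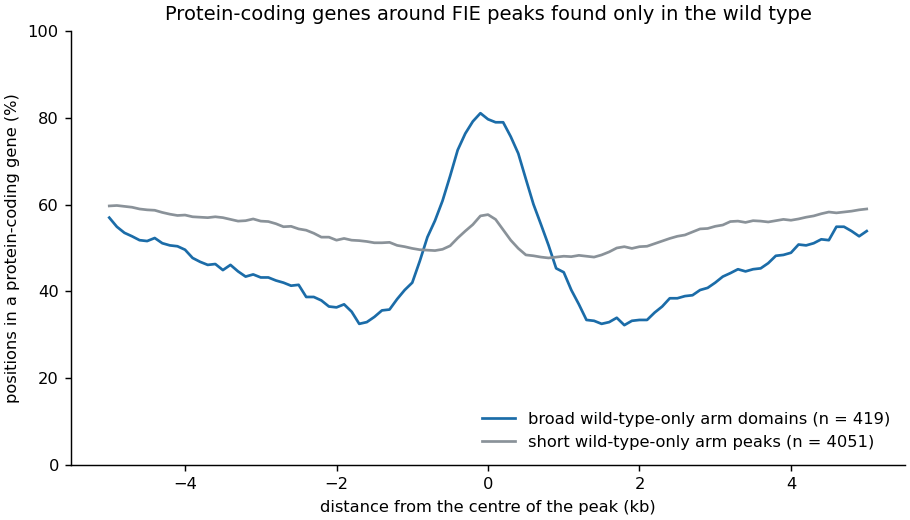
Share of positions inside a protein-coding gene (vertical, %) by distance from the peak centre (horizontal, kb), for 419 broad domains and 4051 short peaks. At the centre the share is 79.7% in domains and 57.7% in short peaks, and 1800 bp towards higher coordinates it is lowest in domains, at 32.2%.

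The profile of genes around the centre shows how the domains sat in the genome. Coding genes lay under 79.7% of domain centres, against 57.7% of short peak centres, and the highest share around domains was 81.1%, at 100 bp from the centre. The share on the flanks of the domains, at a distance of 2000 bp, was 36.3% towards lower coordinates and 33.4% towards higher ones, against 51.8% and 50.3% beside short peaks. The genes touched by domains were of ordinary size, with a median of 1908 bp against 2104 bp for all arm genes. Domains thus covered most of a typical gene, with a median of 68.7% of the gene body. In 265 of the 389 genes at least 50% was covered, and 69 genes lay wholly under domains. Of the genes wholly covered the 5 longest were WOX1 (2721 bp), BOP1, TCP2, FIL and AT4G12050.

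By arrangement, 230 domains ran across 1 end of a single gene, 65 lay inside a gene, 48 held 1 whole gene, 27 touched more than 1 gene and 49 touched no protein-coding gene. The most genes under 1 domain were 3, at AT5G02990 to AT5G03000 and at ERF10, AT1G03810 and AT1G03820. Conversely, 10 genes lay under more than 1 domain. They included JAG, a zinc finger gene of organ growth (1754 and 2016 bp, folds 5.15 and 9.0), and NST1, a NAC gene of secondary walls (1723 and 1951 bp, folds 9.99 and 4.22). BRM, a chromatin remodelling ATPase that opposes Polycomb, had neighbouring domains of 1281 and 1319 bp with folds of 6.88 and 7.27.

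Transcription factor genes were common under the domains. Of 852 arm genes whose names placed them in 1 of the transcription factor families searched, 113 lay under a domain (13.3%, 11.1 to 15.7), against 276 of the other 24598 genes (1.12%, 0.998 to 1.26). Over all 25450 arm genes the share was 1.53%. Transcription factors made up 29.0% of the 389 genes under domains (24.8 to 33.7), against 3.35% of all arm genes. The trait was not particular to the domains. Any wild-type peak lay on 33.6% of the 852 genes, against 9.30% of the others, and 39.5% of those bound lay under a domain. Such a gene lay under 115 domains (27.4%). It also lay under 7 of the 22 broad arm peaks with under 50% of their length covered by knockdown peaks. A count for the other 16 broad arm peaks with an overlap is not given. The gene table lacks descriptions for many genes, and factors such as PI, LFY and SHI were not caught by the family names. The counts of 113 and 852 are thus lower bounds. The shares of 29.0% and 3.35% may both be understated by unknown amounts, so the contrast between them is not bounded. The families were revised after genes under domains had been seen.

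The share of transcription factors was also higher among longer peaks found only in the wild type. The summit lay in such a gene in 3.32% of the 1206 peaks under 150 bp and in 11.4% of the 757 peaks of at least 500 bp that were no domains. In domains it was 17.2% of 227 under 1500 bp (12.8 to 22.6), 32.0% of 100 from 1500 to under 2000 bp (23.7 to 41.7), 32.8% of 67 from 2000 to under 3000 bp (22.8 to 44.7) and 10 of the 25 above that (23.4% to 59.3%). The intervals of the 3 longest classes overlap. Longer peaks also had higher folds, so peaks of the same fold range were set side by side. Between folds of 5 and 8 the share was 21.0% in 157 domains (15.4 to 28.0) and 10.8% in 148 short peaks (6.76 to 16.8), with intervals that overlap. Within that range the median fold was still higher in domains, at 6.25 against 5.65. Above a fold of 8 too few short peaks existed to compare.

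**Figure D4:**
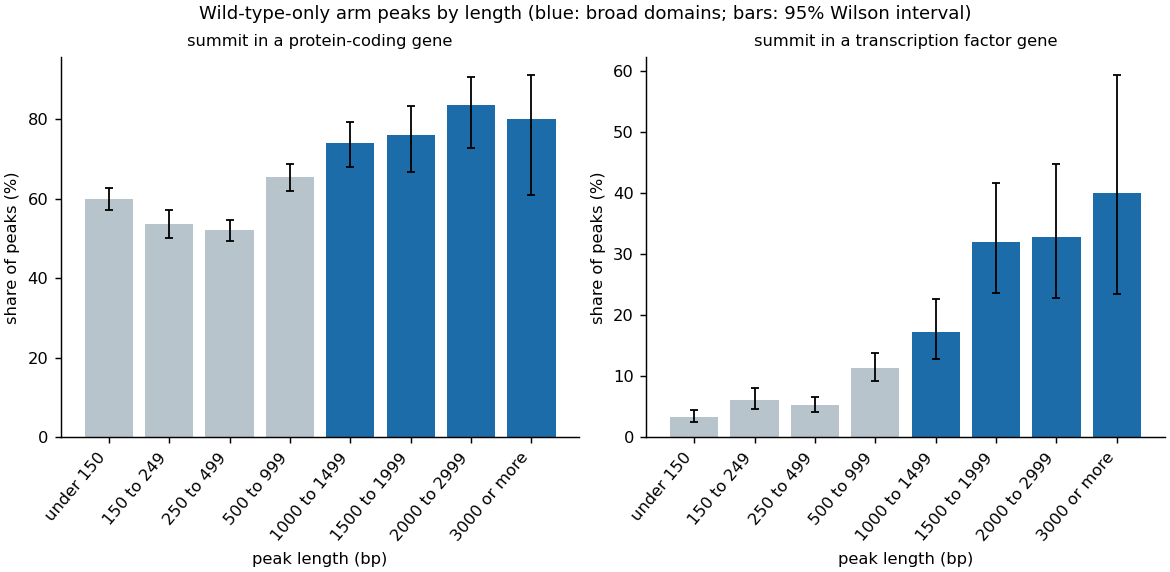
Share of wild-type-only arm peaks (vertical, %) with the summit in a protein-coding gene (left) or a transcription factor gene (right) by peak length (horizontal, bp); blue bars are broad domains, grey bars short peaks, error bars 95% Wilson intervals. On the right the share runs from 3.32% in the shortest class to 10 of 25 peaks in the longest.

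Listed developmental regulators were frequent under the domains. Of 172 listed regulators 168 lay on the arms, and the counts below are of these. Under a domain were 53 of the 168 (31.5%), against 1.53% of all arm genes. In the knockdown 12 had a peak (7.14%, beside 4.20% of all arm genes), and in the wild type 101 (60.1%, beside 10.1%). Since the lists and the domains were chosen with earlier results of these data known, the counts are a description. The 53 genes lay under 54 domains, whose length had a median of 2021 bp and whose fold had one of 7.35. At the knockdown depth 48 of the 54 would have passed. The other 365 domains held no listed gene.

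Floral identity genes came first, with 12 of 16 under a domain, all 12 with domains that would pass at the knockdown depth. In the knockdown 2 of the 16 had a peak, against 15 in the wild type (93.8%). Over all arm genes these shares are 4.20% and 10.1%. The SEPALLATA genes SEP1, SEP2 and SEP3, which act in floral organ identity, had folds of 15.8, 15 and 9.62 over 2120, 2236 and 3714 bp. PI and AP3, which specify petals and stamens, had 5.77 over 3085 bp and 6.72 over 1745 bp. The carpel and ovule genes STK, SHP2 and SHP1 had 8.18, 7.29 and 5.02. FUL, a gene of fruit growth, had 9.0, CRC, a YABBY gene of the carpel, 7.64, and LFY, which starts flower formation, 4.58. AP1 had a domain of 1859 bp at 4.42. A second broad wild-type peak at AP1, with a fold of 12.9 over 1732 bp, overlapped a knockdown peak and so was no domain. AG, SEP4 and CAL had other wild-type peaks and UFO had none.

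Leaf polarity genes had 9 of 16 under a domain, and 0 of the 16 had a peak in the knockdown, against 11 in the wild type (68.8%). With 4.20% of all arm genes bound in the knockdown, a list of this size at 0 is near the background, as is that of the TCP genes below. The YABBY genes FIL, YAB5, YAB3 and YAB2 had folds of 17, 10.6, 10.1 and 5.88, and INO, the YABBY gene of the outer ovule integument, 4.55. The KANADI genes KAN, KAN2 and KAN3, which set the outer leaf side, had 8.13, 5.63 and 4.64. AS2, a LOB-domain gene of the inner side, had 3.69 and 68 reads at the summit, and its domain would not have passed there. The HD-ZIP III genes PHB, PHV and REV, of the inner leaf side, had no wild-type peak. Of the other listed HD-ZIP III genes, ATHB-15 had none either, while HB-8 had a wild-type peak but no domain.

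Of 12 shoot meristem and boundary genes on the arms 7 lay under a domain, and all 7 domains would have passed. Of the 12, 1 had a knockdown peak (8.33%, beside 4.20% of all arm genes) and 10 a wild-type peak (83.3%, beside 10.1%). The domains at BOP1, CUC2 and LAS were described above as among the longest. STM had 3002 bp at a fold of 8.51 over 69.9% of its body. WUS, which maintains the stem cells, had 2745 bp at 8.34 over 99.4%. BOP2 had 1945 bp at 4.80 and CUC3 1259 bp at 4.67. CLV3 and CUC1 had no wild-type peak.

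Domains were scarcer on other developmental lists. WOX1, which drives lamina growth, had 3196 bp at 6.25 and WOX9 1125 bp at 4.09, as 2 of 14 WOX genes. SPCH, which starts the stomatal lineage, had 7.40, the root stem cell factor PLT2 10.8 and SHR, a GRAS gene of root layers, 3.58, as 3 of 9 root and stomatal genes. The embryo regulators FUS3 and LEC2 had 9.44 and 6.15, as 2 of 7. Of 13 flowering time genes 2 were covered, the floral repressor SVP at 14.6 over 2606 bp and AGL24 at 5.24. FLC had other wild-type peaks and FT had none. The domains at WOX9 and SHR would not have passed at the knockdown depth.

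The SHI/STY and TCP families of growth regulators also had members under domains. Of 9 SHI/STY genes on the arms 5 lay under a domain, with a median fold of 15.1 over 6 domains. Those were STY2 at 25.3, STY1 at 18.1, SHI at 15.6 and 6.10, LRP1 at 14.6 and SRS5 at 3.94. Of 21 TCP genes on the arms 8 lay under a domain, with a median fold of 5.92. Of the 21, 0 had a knockdown peak and 15 a wild-type peak (71.4%). TCP2 led with 14.1, followed by TCP5 at 8.26, TCP13 at 7.69 and TCP15 at 7.0. TCP1, TCP17, TCP10 and TCP14 had 4.83, 4.23, 4.11 and 3.94. TCP3 and TCP4, close relatives of TCP2, had no wild-type peak, while TCP24 had a wild-type peak but no domain.

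Lists outside these groups had few domains or none. GRF5, a leaf growth factor, was 1 of 8 growth-regulating factors on the arms (fold 6.86). YUC6, an auxin synthesis gene, was 1 of 16 auxin genes, and its domain, with a fold of 2.95 from 77 reads over a background of 25.5, would not have passed at the knockdown depth. EMF1 was 1 of 13 PRC2 genes and partners, and FIE itself had no wild-type peak. None of the 14 BPC, AZF and ZAT genes lay under a domain, although 2 had a knockdown peak (14.3%) and 6 a wild-type peak (42.9%). None of 8 housekeeping genes on the arms had a wild-type peak, which at this list size is near the 10.1% of all arm genes.

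**Figure D5:**
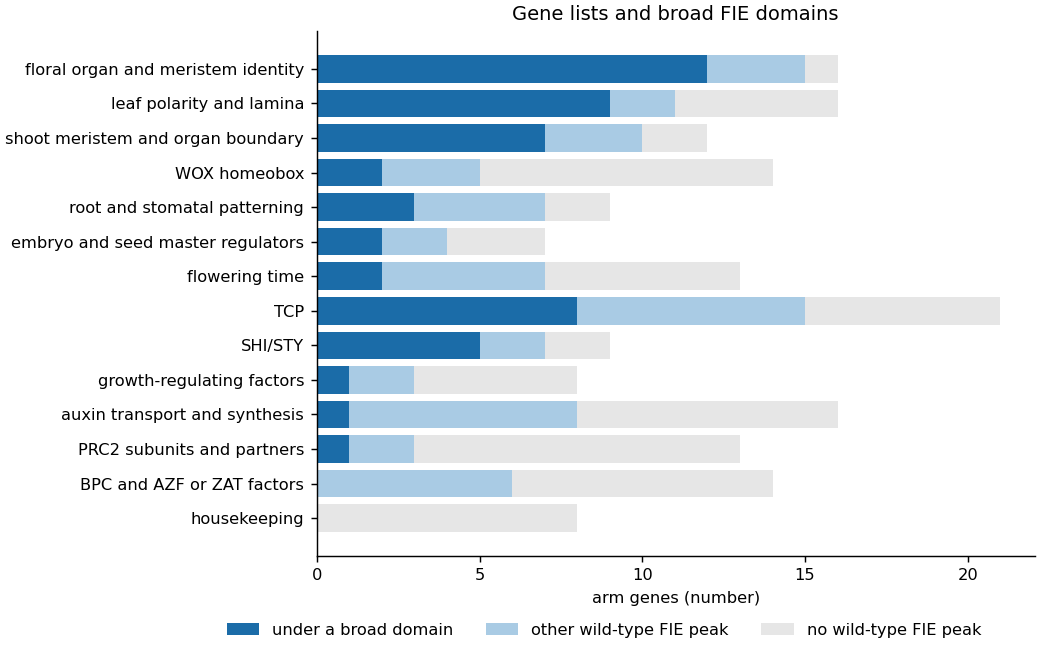
Number of arm genes (horizontal) on each of 14 lists (vertical) under a broad domain, with another wild-type peak, or with none. Floral genes show 12 of 16 under a domain, the BPC, AZF and ZAT genes and housekeeping genes 0. With 1.53% of all arm genes under a domain, lists of these sizes at 0 are near the background.

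Between families as matched by gene names, the share of arm genes under a domain differed widely. The matches were incomplete, so these are not shares of whole families. PI and AP3 were missed among MADS-box genes and WUS among homeobox genes, though each lay under a domain. TCP genes had 8 of 21 (38.1%, 20.8 to 59.1) and AT-hook genes, whose products bind AT-rich DNA, 9 of 29 (31.0%, 17.3 to 49.2). Homeobox genes had 18 of 95 (18.9%), MADS-box genes 13 of 92 (14.1%), WRKY genes 9 of 69 (13.0%) and NAC genes 12 of 101 (11.9%). MYB genes had 10 of 130 (7.69%, 4.23 to 13.6). Among auxin response factors the count was 0 of 16 (0 to 19.4), with 3 bound in the wild type. CLE signal peptide genes had 0 of 30 (0 to 11.4) with 6 bound, and ribosomal protein genes 0 of 63 with 0 bound. With 1.53% of all arm genes under a domain, families of these sizes at 0 are near the background. Cytochrome P450 genes had 43 of 229 bound, but 5 under a domain (2.18%, 0.936 to 5.01), near the 1.53% of all arm genes. Those 5 were CYP78A5 of organ growth, CYP79B2 and CYP79B3 of indole metabolism, and CYP94B1 and CYP94B3 of jasmonate breakdown.

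Several small families were covered nearly whole. They were picked after their values were seen and support nothing by themselves. All 6 YABBY genes, with INO and CRC, lay under a domain. So did the 3 HECATE genes of the bHLH class that shape the pistil, at folds of 7.74, 7.43 and 6.02, and the growth genes JAG and NUB. Of 5 NGATHA-type B3 genes of leaf margins and style, 4 were covered, with NGA2 at 12.0 over 99.5% of its body, NGA3 at 7.08, NGA4 at 5.29 and NGA1 at 3.80. KANADI genes had 3 of 4. INDETERMINATE DOMAIN zinc finger genes had 8 of 13, among them JKD and MGP, partners of SHR in the root, at 8.61 and 7.32. LIGHT SENSITIVE HYPOCOTYLS genes had 4 of 9. Of 29 Aux/IAA repressors of auxin signalling 5 were covered, at IAA16 (8.43), IAA7 (7.41), IAA2 (6.0), AXR3 (4.63) and IAA20 (4.61).

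MicroRNA genes were also found under domains. Of 284 on the arms, 11 lay under a domain (3.87%), beside 1.53% of protein-coding arm genes, and 28 had any wild-type peak (9.86%), beside 10.1%. All 11 domains, of 1034 to 2487 bp and with folds from 4.16 to 11.8, would have passed at the knockdown depth, and 10 of them touched no protein-coding gene. The highest were at MIR172a (11.8) and MIR172d (10.6), whose microRNAs repress AP2-type floral repressors, with MIR172b at 6.01. MIR160a (9.40) and MIR167a (5.88) act on auxin response factors, MIR166a (4.79) and MIR166b (4.16) on HD-ZIP III genes, MIR319a (8.97) on TCP genes and MIR156f (7.56) on SPL genes. MIR394b, of the shoot apex, had 8.95 and MIR158b 4.81. The smallest distance from any of the 11 domains to a knockdown peak was 9491 bp.

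Domains without a protein-coding gene included strong ones. The longest of the 49 was a stretch of 2924 bp with a fold of 10.4, next to the STY1 domain and 119 bp from it. Domains of 2487, 2382 and 2374 bp held MIR160a, MIR172d and the long non-coding RNA gene near BRC1. A domain of 2244 bp (fold 7.24) lay 84 bp from the domain of PTL, a trihelix gene of petal growth with a fold of 15.4 over 2847 bp.

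Many domains lay in groups. With gaps of up to 10000 bp allowed, 57 groups held 125 of the 419 domains (29.8%). Neighbours at this distance were common, since 72.2% of short peaks and 87.4% of domains had another wild-type peak of any length within 10000 bp. The largest group had 4 domains over 13126 bp of chromosome 4 at AT4G16540 to AT4G16560, with folds of 8.85, 9.24, 10.4 and 16.6. The group that holds EMF1 had 3 domains over 13961 bp with folds of 8.33, 34.6 and 6.92, of which only the middle one touched EMF1. The group with WUS had 3 over 9143 bp at 22.5, 8.34 and 9.16, and that with LAS 3 over 10042 bp at 10.9, 6.05 and 4.81, in either case with 1 domain on the named gene. The chromosomes had 98, 70, 80, 68 and 103 domains in their order, or 14.3 to 18.3 per 1000 arm genes, with median folds from 5.73 to 6.14.

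The lack of a knockdown peak chose the domains and is no result about them. It was common to arm peaks, since 77.6% of all wild-type peaks, 95.8% of those on the arms, 91.7% of broad arm peaks and 96.2% of short arm peaks overlapped no knockdown peak. A peak missing from the knockdown list is not a measured absence, since the deposited lists hold only peaks with a −log10 q of at least 10. What the depth difference could hide was gauged by scaling each summit to the knockdown depth. At that depth 374 of 419 domains would have passed (89.3%), against 35 of the 38 broad arm peaks with a knockdown overlap (92.1%), 106 of 115 broad peaks inside the windows (92.2%), 546 of 4051 short peaks (13.5%) and 21.3% of all wild-type arm peaks. Broad peaks thus passed at like shares in or out of the domains. The other 45 domains had folds of 2.68 to 4.09, lengths of 1002 to 1832 bp and 58 to 90 reads at the summit, and for them a loss was not detectable at this depth. Thinning the reads gave 365 domains expected to pass at equal occupancy. It gave 704 short peaks, more than the 546 by scaling, and 1148 of all wild-type arm peaks, against 996. With 1 list per group, the effect of the transgenes and any difference between the samples as such cannot be told apart.

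Knockdown peaks lay about as far from domains as from short peaks. The nearest lay a median of 23400 bp from a domain, against 23537 bp from a short peak. The smallest gaps were 154 bp at AT2G03040, 295 bp at the pseudogene AT5G14830, 478 bp at CUC3, 495 bp at AT1G45100 and 603 bp at AT5G66970. Of the 389 genes under domains 6 had a knockdown peak elsewhere on the gene (1.54%), against 4.20% of all arm genes. The choice of domains lowers this count, since a knockdown peak on the domain would have removed it. At CUC3 the knockdown peak measured 112 bp and lay 478 bp from the domain of 1259 bp. At AP1 it measured 144 bp and lay 988 bp from it, and at AGL24 99 bp and 2078 bp. The other 3 were ALDH3F1, AT1G79420 and AT3G05450, with knockdown peaks of 81, 96 and 87 bp. The median knockdown peak on the arms was 115 bp long, so these 6 are of ordinary length.

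The 38 broad arm peaks that did overlap a knockdown peak fell into separate kinds. In 22 of them the knockdown peaks covered 4.12% to 45.5% of the wild-type interval, with 19.4% as the next highest. These had a median fold of 8.55, against 5.97 in domains, and included AG (14.7 over 4284 bp, with 408 bp of knockdown peak), SRS7 (18.8 over 3820 bp, with 204 bp) and the second peak at AP1. Their knockdown peaks spanned 72 to 664 bp, with a median of 102 bp. With the overlap rule set at 10% of the interval the number of domains was 435. In the other 16, knockdown peaks covered at least 85.8% and the median fold was 4.76. Of these, 11 lay together on chromosome 5 (15667805 to 15693799), 4 at the top of chromosome 2 (998 to 55336) and 1 on chromosome 3. The summit was in a protein-coding gene in 18 of the 22 (81.8%, 61.5 to 92.7) and in 4 of these 16 (10.2% to 49.5%), beside 76.4% of domains (72.1 to 80.2). The interval of the 22 overlaps that of the domains and the interval of the 16 does not. The 16 are mostly neighbouring pieces of a few stretches and not independent, so their interval is too narrow to compare.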

How the data were processed

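The authors deposited 1 narrowPeak list per anti-FIE group. The labels do not spell out the name of 1 list, which was taken as the knockdown, the one remaining anti-FIE group. Per the submitters' processing notes, the build was TAIR10 and the tools included MACS2 2.1.0.20151222, Bowtie2 and bedtools. The step each served, and how replicates and input entered, are not given in the sources used here. Each deposited row holds a score, a fold enrichment ratio, the summit offset, and the q-value and p-value on the −log10 scale. The score is the −log10 q times 10, without decimals.

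From the deposited fold and −log10 p, a summit pileup in whole reads and a background were recovered under a Poisson model with a pseudocount of 1 (largest misfit 7.27e-04 in −log10 p, checked on simulated peaks). The depth ratio, 0.471, is the median of background ratios at 874 summit pairs within 30 bp. A peak would pass at the knockdown depth if its scaled values reached a −log10 p of 12.4, the smallest among knockdown peaks. The scaled pileup was first rounded, and was left unrounded after that count was seen. This takes fragment length as equal in both lists.

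Gene positions came from a RefSeq table of TAIR10.1, taken to share its chromosome sequences with TAIR10. It has no strand or exons, and no genome sequence was used, so motifs, exon classes and sequences are not given. A gene was under a domain if they shared 1 bp. Intervals are 95% Wilson intervals. No test was run over peaks or genes.

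The members and lists were chosen with earlier results of these data known. The 14 lists (181 genes matched) and the families, matched by names in the gene table, were also revised after genes under domains had been seen. Named in the text were the 15 longest domains, the 15 with the highest fold, the 5 nearest to a knockdown peak, the 5 on either side of the length limit, and listed genes with the most covered base pairs. Others were chosen after their values were seen. Python 3.11.15, numpy 2.4.6, pandas 2.3.3, scipy 1.17.1 and matplotlib 3.10.9 were used.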

Additional observations from a re-analysis of the deposited data

How the results depend on the processing

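Of 20 alternatives, 18 left the value within its interval or, where it had no interval, within 1.5 times. The exceptions came with a minimum of 1500 bp in place of 1000 bp. That gave 192 domains, and 37.7% of the genes under them were transcription factors, against 29.0%. The longer minimum leaves fewer domains by construction, and the cause of the higher share was not tested. With 800 bp there were 608 domains. A knockdown peak within 500 bp counted as shared gave 415, the upper part of each list by q gave 419 and wider windows 394. With a depth ratio 1.5 times lower 294 domains would pass, and with the scaled reads rounded 375. Summit shares in coding genes ran from 75.2% to 79.7%. Requiring 50% of the gene body gave 265 genes, and adding 1 kb on either side 516. Joining peaks, restricting to domains that would pass and rounding were chosen after seeing the data. No paired analysis was possible because each group has 1 peak list, and for the same reason no replicate could be left out. The GA-repeat and telobox searches and their alternatives were not run, as no sequence was used here. The recovered depth is relative, and the lists hold no signal outside peaks.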

Other observations

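Broad peaks outside the arms looked different. Of the 115 wild-type peaks of at least 1000 bp inside the windows around the centromeres, 97 had a knockdown peak on them or within 500 bp (84.3%). Their summits lay in protein-coding genes in 22 cases (19.1%, 13.0 to 27.3) and in pseudogenes in 16 (13.9%, 8.75 to 21.4), against 76.4% and 0.239% of the domains. Their median fold was 5.38, against 5.97 in domains.

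In the knockdown list 37 of the 1908 arm peaks reached 1000 bp. Of these, 24 overlapped a wild-type peak and 13 did not. Among the 13, 4 lay on LpxC1, LpxC3, LpxC4 and LpxC5, neighbouring gene copies on chromosome 1 that code for an enzyme of lipid A synthesis, at folds of 5.81, 4.47, 4.47 and 5.03. Between 8769203 and 8834793 of chromosome 1 lay further peaks without a wild-type overlap. They were at AT1G25055 (6.04), AT1G25150 (4.92), AT1G25155 (6.37) and outside protein-coding genes (5.14). Copies of near-identical sequence can share reads, which was not tested here, so the values of this stretch are uncertain.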
